A study of Mus musculus with 15 samples.

Results

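The 57 genes described here are the Wnt ligands, their receptors and co-receptors, their secreted inhibitors and agonists, and the core of the signal relay down to the Tcf and Lef factors, taken by gene symbol from the 26628 genes of the table and not by any measured value. They comprise 19 Wnt genes, 10 Frizzled (Fzd) receptors, 2 Lrp co-receptors, 4 R-spondins, 3 Lgr receptors, 10 secreted inhibitors, 3 Dvl genes, 2 Axin genes and 4 Tcf/Lef factors. Gene expression was profiled by RNA-seq in the whole cerebellum (Ce) and the whole striatum (St) of male Hsd:ICR mice, either from a line bred for high voluntary wheel running (Hi) or from a control line (Co). All mice, controls included, were housed singly with a wheel, and each brain was sampled on day 7. The labels give an age of 6 weeks. There were 4 CeCo, 4 CeHi, 4 StCo and 3 StHi samples, because 1 StHi sample was removed by the authors. Each group stands for a single line, so a difference between Hi and Co cannot be told apart from a difference between these particular lines that arose without selection, nor from an effect of the amount of running itself.

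Wnt proteins are secreted lipid-modified ligands that bind a Frizzled receptor together with Lrp5 or Lrp6, and the signal passes through Dvl to a destruction complex that Axin holds together. When that complex is held in check, beta-catenin accumulates and acts with Tcf and Lef factors on target genes, while other branches act on cell polarity and calcium without it. Sfrp proteins and Wif1 bind Wnts outside the cell, and some but not all Dkk proteins bind the co-receptors. R-spondins, through Lgr4, Lgr5 and Lgr6, keep Frizzled receptors at the cell surface. In the cerebellum Wnt7a is known as a granule cell signal in synapse formation with mossy fibers.

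Values are normalized counts, that is fragment counts corrected for the library size of the sample. The samples held about 32909383 to 47485535 fragments. A gene was tested where its CPM (counts scaled to an equal library size) reached 1 in at least 3 samples, which 15213 genes and 49 of the 57 members did. A gene is called where its adjusted p-value is under 0.05 (limma, Benjamini-Hochberg adjustment over all genes tested), and differences are on the log2 scale of the value plus 1, given with their standard error. Among the cerebella 1 library, replicate 3 of CeHi, stood apart in several marker genes. It held 109 normalized counts of the dopamine receptor gene Drd2 against 18.7 to 33.6 in the other cerebella, 2267 of the glutamate transporter gene Slc17a6 against 654 to 1190.3, and 87.7 of Tfap2d against 0 to 2.8. Results that rest on this library are given with and without it. Striatum samples stood apart in other markers. Replicate 2 of StHi had a choroid plexus sum of 18047, against 1259 to 3395 in the other striata. Replicate 1 of StHi had a cortical sum of 17219, against 27683 to 48772. The striatal neuron genes and the cerebellar granule and Purkinje genes followed the tissue labels in all 15 samples, with the summed granule cell genes between 154450.0 and 199013 in cerebellum and between 200.1 and 372 in striatum. In these bulk samples fewer cells of a type and less RNA per cell cannot be told apart.

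The promoters of 4 members are shown first because they belong to members whose values carry the results below. Wnt3 and Fzd7 differed between lines in 1 region, Fzd1 is the receptor highest per kilobase in the cerebellum, and Wnt8b was highest in StHi. They are RefSeq windows on build GRCm38.p6 from 250 bases before to 50 bases after the start of the transcript, read along the gene, and capitals mark CTTTG or its reverse complement CAAAG, the core of the Tcf/Lef binding motif. Wnt3 lies at chr11:103773925-103774224 on the plus strand, Fzd7 at chr1:59481897-59482196 on the plus strand, Fzd1 at chr5:4758167-4758466 on the minus strand and Wnt8b at chr19:44493222-44493521 on the plus strand.
Wnt3: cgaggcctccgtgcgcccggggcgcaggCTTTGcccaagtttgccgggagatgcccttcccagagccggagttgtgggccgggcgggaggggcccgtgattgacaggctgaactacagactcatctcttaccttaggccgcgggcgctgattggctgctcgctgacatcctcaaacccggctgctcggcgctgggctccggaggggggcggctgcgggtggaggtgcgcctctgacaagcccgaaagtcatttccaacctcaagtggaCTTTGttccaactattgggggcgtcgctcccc
Fzd7: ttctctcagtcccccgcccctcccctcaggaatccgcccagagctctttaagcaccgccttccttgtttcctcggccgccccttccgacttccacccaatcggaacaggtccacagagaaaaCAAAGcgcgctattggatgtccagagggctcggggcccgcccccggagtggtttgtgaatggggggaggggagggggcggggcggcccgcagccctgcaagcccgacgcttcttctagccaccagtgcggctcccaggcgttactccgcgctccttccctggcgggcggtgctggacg
Fzd1: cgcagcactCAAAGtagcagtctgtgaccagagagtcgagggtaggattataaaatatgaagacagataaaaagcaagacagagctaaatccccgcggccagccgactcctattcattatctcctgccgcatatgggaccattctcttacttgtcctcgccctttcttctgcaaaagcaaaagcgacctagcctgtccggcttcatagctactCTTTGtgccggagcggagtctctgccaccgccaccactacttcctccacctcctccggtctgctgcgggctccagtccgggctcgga
Wnt8b: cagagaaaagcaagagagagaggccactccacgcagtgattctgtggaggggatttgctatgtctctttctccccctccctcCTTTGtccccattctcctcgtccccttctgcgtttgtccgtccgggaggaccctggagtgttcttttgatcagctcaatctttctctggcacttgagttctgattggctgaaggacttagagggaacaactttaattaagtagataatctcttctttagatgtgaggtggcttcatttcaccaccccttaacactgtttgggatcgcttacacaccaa
The first base of a match stood at -222 and 19 from the start in Wnt3, at -128 in Fzd7, at -241 and -37 in Fzd1 and at -168 in Wnt8b. Of the 57 members 39 had a promoter in the table, and 17 of these held the letters in at least 1 window. The same letters occur in 53.9% of the 32851 mouse promoters of that length, so a match here is no more than a description. The promoter of Lgr4 held no match, and those of Rspo3 and Fzd2 were not analysed here.

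The first comparison, between cerebellum and striatum, asks which parts of the pathway each region expresses, before any question on the lines. Most members differed by region and they did so in both directions, with different Wnt and Frizzled genes leading in each tissue. Of the 49 tested members 39 were called, 19 higher in the cerebellum and 20 higher in the striatum, where 80.2% of all genes tested were called, 40.6% as higher in the cerebellum and 39.6% as higher in the striatum. The share of members called was thus near that of all genes. The median size of the difference was 1.16 log2 units over the members and 0.44 over all genes tested. The lowest and highest samples of the 2 regions did not overlap for 30 of the 49 members, and for 55.2% of all genes tested. Without replicate 3 of CeHi 42 members were called.

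**Figure D1:**
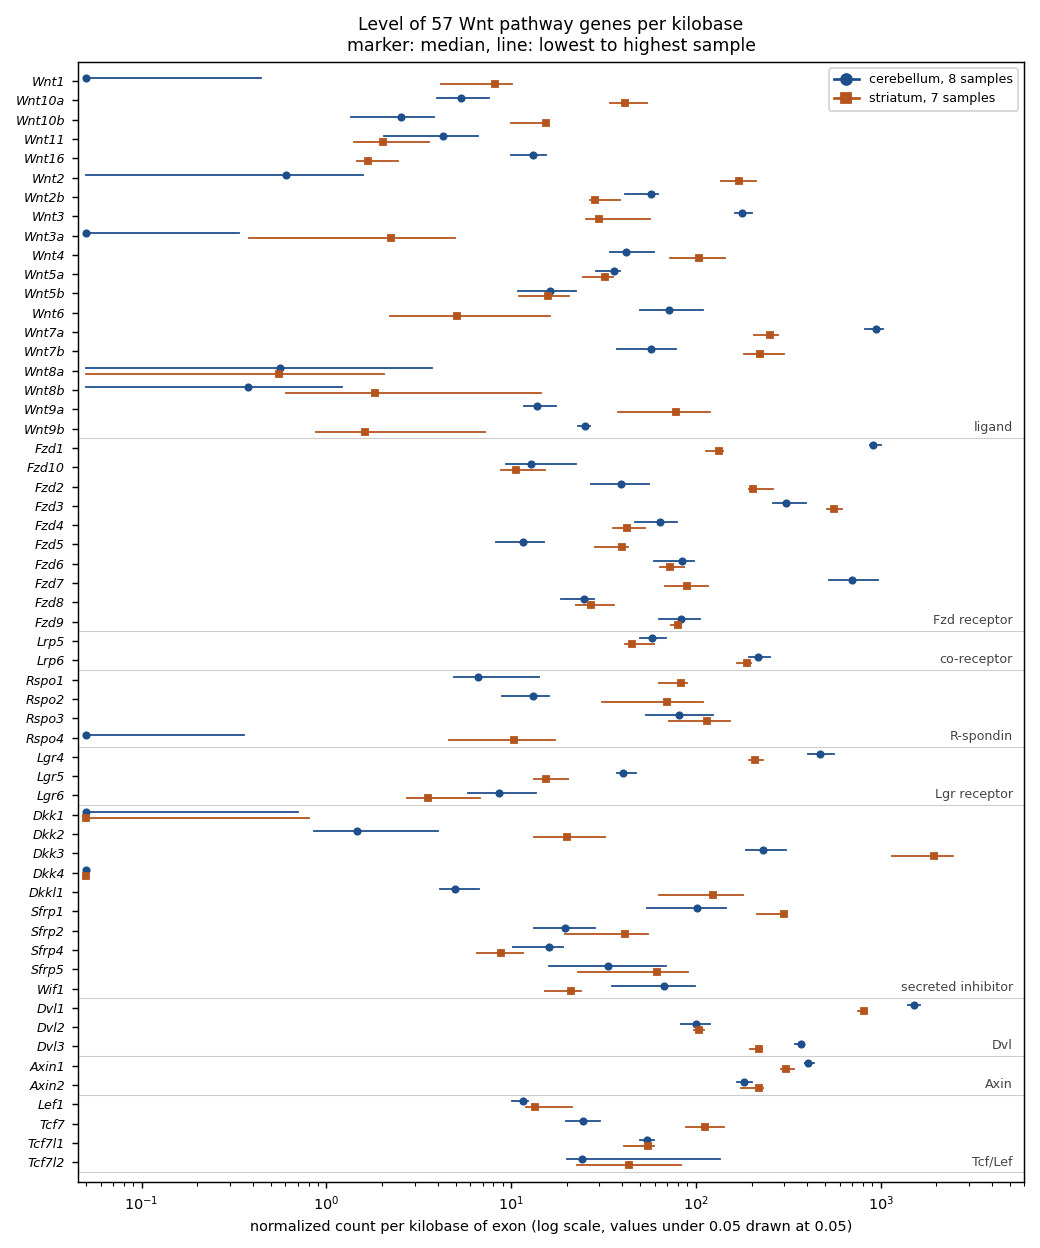
Level of each of the 57 members in normalized counts per kilobase of exon, on a log axis, with circles for the median of 8 cerebellum samples, squares for the median of 7 striatum samples and lines from the lowest to the highest sample. Wnt7a, Fzd1 and Dvl1 lead their roles in the cerebellum, and Dkk3 is the highest of all members in the striatum.

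Among the ligands, the cerebellum was dominated by Wnt7a. Per kilobase of exon its level was 929 ± 75.9 normalized counts (SD, n = 8) in the cerebellum and 249 ± 24.5 (SD, n = 7) in the striatum. It made up a median of 64% of the summed ligand level per kilobase in the cerebellum and of 23.3% in the striatum. In counts not divided by length, Wnt7a ranged from 2616 to 3246 (median 2996) in the cerebellum and 656 to 882 (median 796) in the striatum, with no overlap, a difference of 1.90 ± 0.06 (limma, adjusted p = 2.2e-14). Second per kilobase in the cerebellum was Wnt3, at 179 ± 13.3, and second in the striatum was Wnt7b, at 231 ± 42. The order of Wnt7a and Wnt7b in the striatum is not fixed by these data, since their levels differed by less than their spread and the order turned when the longest transcript was used as the length.

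Of the 14 tested ligands 6 were called as higher in the cerebellum and 6 as higher in the striatum. Of all genes tested 40.6% and 39.6% were called in these directions, so the ligand shares were near those of all genes. Wnt2 differed most of all members. It ranged from 308 to 479.7 (median 386) in the striatum, whereas no cerebellum sample exceeded 3.56 normalized counts. The cerebellum samples held 0 to 4 fragments of it and the striatum samples 267 to 494. The fitted difference was -7.37 ± 0.27 (limma, adjusted p = 7.6e-14), a size that depends on the pseudocount and moved between -8.39 and -5.93 over the alternatives.

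Wnt6, Wnt9b and Wnt16 were the ligands with the largest excess in the cerebellum. Wnt6 ranged from 109.7 to 238 (median 156) in the cerebellum and 4.86 to 35.6 (median 11.1) in the striatum, a difference of 3.72 ± 0.34 (limma, adjusted p = 4.6e-08). Wnt9b ranged from 104 to 121 (median 113) and 3.96 to 32.4 (median 7.31), a difference of 3.52 ± 0.28 (limma, adjusted p = 3.7e-09). For both genes the 2 regions did not overlap, although replicate 0 of StHi, at 32.4, lay above the other striata for Wnt9b. Wnt16 was low throughout, with 43.6 to 67.5 (median 57) in the cerebellum and 6.4 to 10.7 (median 7.35) in the striatum, a difference of 2.70 ± 0.15 (limma, adjusted p = 2e-11). Wnt10a ran the other way, with 9.81 to 18.7 (median 13.3) in the cerebellum and 85.1 to 135 (median 102) in the striatum, a difference of -2.90 ± 0.16 (limma, adjusted p = 2.7e-11). It shared that direction with Wnt10b (-2.38 ± 0.22), Wnt9a (-2.30 ± 0.15), Wnt7b (-1.96 ± 0.15) and Wnt4 (-1.21 ± 0.12), all called. Wnt5a and Wnt5b were not called, at 0.20 ± 0.09 and 0.04 ± 0.19.

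Several of these ligand genes are neighbours on the genome, and their region differences could be set side by side. On chromosome 11 of GRCm38 (GENCODE M21) Wnt9b (103727364 to 103749821, minus strand) and Wnt3 (103774150 to 103817957, plus strand) stand 24.3 kb apart, and both were higher in the cerebellum. Wnt6 (74771892 to 74785322) and Wnt10a (74791516 to 74804179), on the plus strand of chromosome 1, are 6.19 kb apart, and the first was higher in the cerebellum while the second was higher in the striatum. Wnt10b and Wnt1 on chromosome 15 are 11.7 kb apart, and Wnt3a and Wnt9a on chromosome 11 are 16.2 kb apart. Wnt1 and Wnt3a were below the filter, and both were read mainly in the striatum. Wnt1 held at most 1 fragment in any cerebellum sample and 9.89 to 24.2 (median 19.5) normalized counts in the striatum. Wnt3a held at most 1 fragment in the cerebellum and 1.05 to 13.7 (median 6.17) normalized counts in the striatum. By these values 3 of the 4 neighbouring pairs leaned to the same region and 1 did not. The pairs with Wnt1 and Wnt3a rest on untested genes with few fragments, and Wnt3a exceeded 3 fragments in 5 striatum samples. How often neighbouring genes in general lean alike was not examined.

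The Frizzled receptors divided in the same manner. In the cerebellum Fzd1 and Fzd7 stood far above the others per kilobase, at 919.7 ± 44.4 and 720.3 ± 153 (SD, n = 8), and in the striatum Fzd3 led with 565 ± 32.7 (SD, n = 7), followed by Fzd2 with 217 ± 28.2. Together with the ligands this left the cerebellum with Wnt7a, Wnt3, Fzd1 and Fzd7 on top and the striatum with Wnt7a, Wnt7b, Fzd3 and Fzd2. Fzd1 ranged from 3669.7 to 4201 (median 3825) in the cerebellum and 475 to 591 (median 556) in the striatum, a difference of 2.81 ± 0.05 (limma, adjusted p = 6.2e-18), the smallest adjusted p of any member. Fzd7 ranged from 2381 to 4407 (median 3185) and 307 to 529 (median 406), a difference of 2.93 ± 0.08 (limma, adjusted p = 1.9e-15). Fzd2 ranged from 99.2 to 203 (median 144) and 709.7 to 953 (median 749.7), a difference of -2.50 ± 0.13 (limma, adjusted p = 1.4e-11). None of these 3 overlapped between regions. Fzd3, known for its part in axon guidance, was 3355 to 5055 (median 3937) in the cerebellum and 6568 to 7917 (median 7192) in the striatum, a difference of -0.85 ± 0.07. Fzd5 was also called as higher in the striatum (-1.65 ± 0.13), again with no overlap, and Fzd4, the receptor of norrin in vessels, as higher in the cerebellum (0.53 ± 0.11), with some overlap of the samples. Fzd6, Fzd8, Fzd9 and Fzd10 were not called. The co-receptors changed little, with Lrp6 at 0.23 ± 0.06 and Lrp5 at 0.29 ± 0.07, and their samples overlapped between regions although both passed the test.

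**Figure D2:**
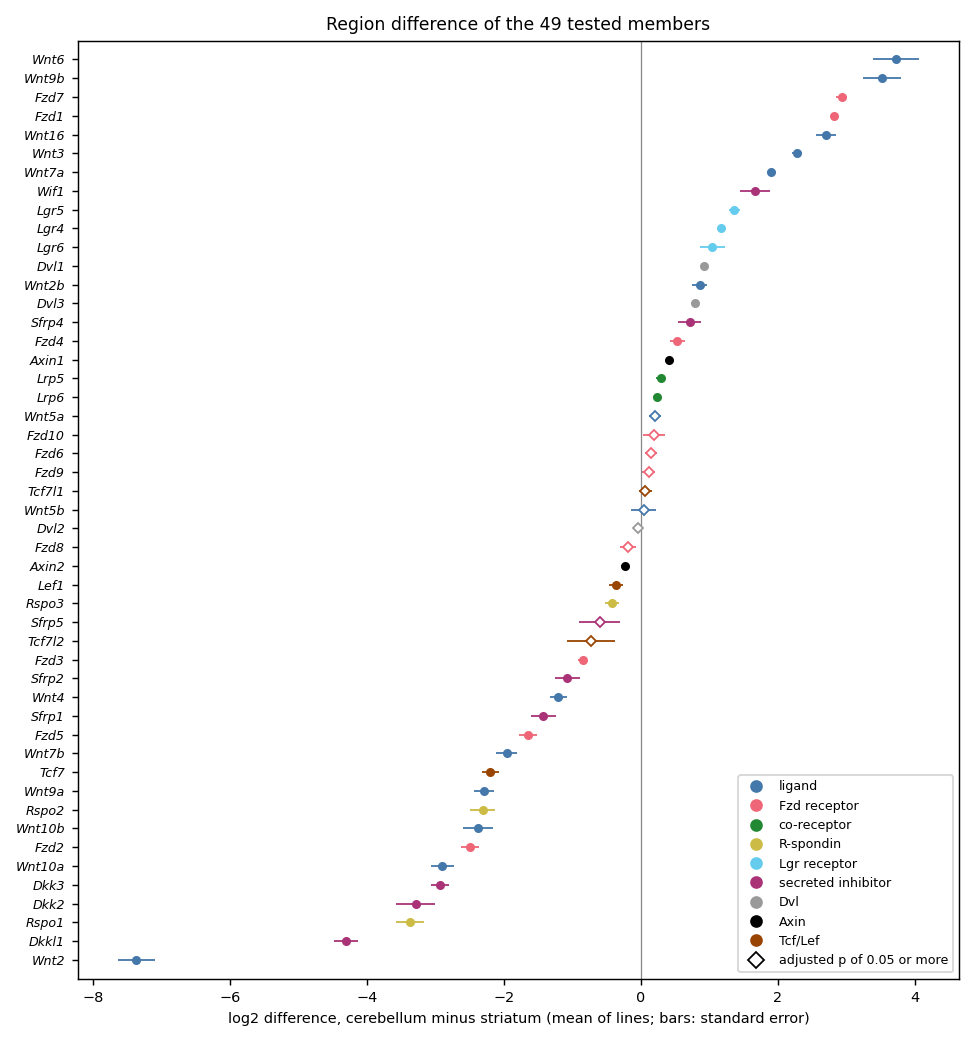
Difference between cerebellum and striatum in log2 units for the 49 tested members, sorted, with bars for the standard error and colors for the role, and open diamonds for members that were not called. All 3 Lgr receptors lie to the right of 0 and all 3 tested R-spondins to the left, Rspo3 at -0.42 as the mean of -1.12 in Co and 0.28 in Hi.

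R-spondins and their Lgr receptors mostly went opposite ways. Over the mean of both lines all 3 tested R-spondins were higher in the striatum and all 3 Lgr receptors in the cerebellum, but for Rspo3 this held in Co alone, with a difference of 0.28 ± 0.15 in Hi (not called) and overlapping samples. Of all genes tested 39.6% were called as higher in the striatum and 40.6% as higher in the cerebellum, and these groups are small. Rspo1 ranged from 9.49 to 27.5 (median 12.8) in the cerebellum and 122 to 173 (median 160.5) in the striatum, a difference of -3.37 ± 0.20 (limma, adjusted p = 6.7e-11). Rspo2 differed by -2.32 ± 0.18, and Rspo3, which was also the one R-spondin that changed with the line, by -0.42 ± 0.10. Rspo4 was under the filter, with at most 1 fragment in any cerebellum sample and 11 to 41 (median 24.6) normalized counts in the striatum. In CeHi it had 0 fragments in all 4 samples, and against a level of 3 fragments per library it was at least 10.5-fold higher in StHi. Lgr4, the highest of the group per kilobase in either region, was 478 ± 54.2 in the cerebellum and 211 ± 13.1 in the striatum. In counts its difference was 1.16 ± 0.04 (limma, adjusted p = 1e-13), and those of Lgr5, a stem cell marker of several epithelia, and Lgr6 were 1.36 ± 0.08 and 1.04 ± 0.18.

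Of the 8 tested members grouped by name as secreted inhibitors, 5 were called as higher in the striatum and 2 as higher in the cerebellum. Of all genes tested 39.6% and 40.6% were called in these directions. Dkk3, a divergent Dkk family member, led per kilobase in both regions, with 243 ± 48.5 in the cerebellum and 1921 ± 459 in the striatum. In counts it ranged from 627 to 1031 (median 777) and 3872 to 8309 (median 6548), a difference of -2.93 ± 0.13 (limma, adjusted p = 1.6e-11). Dkkl1, a Dkk3-related gene, ranged from 6.48 to 10.6 (median 7.85) and 99.1 to 284 (median 196), a difference of -4.30 ± 0.18 (limma, adjusted p = 2.8e-13). Dkk2 ranged from 3.17 to 14.9 (median 5.45) and 49.3 to 119.8 (median 74.2), a difference of -3.29 ± 0.29 (limma, adjusted p = 9.7e-09). The regions did not overlap for these 3 genes. Sfrp1 (-1.43 ± 0.18) and Sfrp2 (-1.08 ± 0.19) were called in the same direction, and Wif1 (1.67 ± 0.22) and Sfrp4 (0.71 ± 0.16) in the other. Dkk1 held few fragments anywhere, with at most 1.94 normalized counts in a sample, and Dkk4 had 0 in all 15 samples, which allows up to 3 fragments in each.

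Inside the cell, Dvl1 was the leading Dvl gene per kilobase, at 1536 ± 81.7 in the cerebellum and 807 ± 27 in the striatum, and in counts it was higher in the cerebellum by 0.92 ± 0.04. Dvl3 differed by 0.79 ± 0.04 and Dvl2 by -0.05 ± 0.05, of which the first was called. Axin1, the scaffold of the destruction complex, stood at 406 ± 14.4 and 306 ± 18.1 per kilobase and was higher in the cerebellum by 0.40 ± 0.04, while Axin2, a common target gene of the pathway, was lower there (-0.23 ± 0.06). For the transcription factors Tcf7l1 was first per kilobase of merged exons in the cerebellum, at 55 ± 3.44. With the longest transcript as the length Tcf7l2 was first there, at 88.4 against 70.9 for Tcf7l1, but this rested on replicate 3 of CeHi, and without that library (chosen after seeing the data) Tcf7l1 stood at 71.4 against 55.6 for Tcf7l2. Tcf7 led in the striatum under either, at 115 ± 19.1 against 24.8 ± 3.93 in the cerebellum, and its counts ranged from 51.7 to 79.4 (median 64.5) and 231 to 374 (median 294), a difference of -2.20 ± 0.12.

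The other genes of the pathway were taken from a list of 56 genes, which were all tested, and 20 were called as higher in the cerebellum and 30 as higher in the striatum, where 40.6% and 39.6% of all genes tested were called. The medians of the difference over this list were -0.13, and 0.70 without regard to direction, beside 0.44 over all genes tested. Among those for secretion of Wnts, Porcn and Wls, which acylate and carry the ligands, were higher in the cerebellum by 1.10 ± 0.04 and 0.74 ± 0.07. Trabd2b (listed as Gm12824), placed in the same list but without a role in secretion, was higher there by 2.61 ± 0.21. Of 7 targets with feedback roles 6 were higher in the striatum, with Nrarp at -3.15 ± 0.10, Myc at -1.49 ± 0.10 and Tnfrsf19 at -1.47 ± 0.06. The exception was Sp5, at 4.11 ± 0.20. Of the other receptors and modulators the largest were Ror1 (2.60 ± 0.08), Sost (2.58 ± 0.46) and Frzb (-2.30 ± 0.10). For Sost this was 3.89 ± 0.62 in Co and 1.28 ± 0.67 in Hi, and the second was not called. Of the nuclear partners they were Tle4 (-2.05 ± 0.07), Tle2 (2.03 ± 0.11) and Tle1 (-1.22 ± 0.05), of the cytoplasmic core Apc (-1.17 ± 0.06), Fam123b (1.13 ± 0.06, also known as Amer1) and Gsk3b (-0.69 ± 0.05), and of the planar polarity genes Prickle2 (-2.65 ± 0.05), Celsr1 (-2.22 ± 0.15) and Prickle1 (-1.85 ± 0.07). Ctnnb1, the gene of beta-catenin, was named for its role and stood at -0.01 ± 0.04 between regions (not called).

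The region differences were alike in number within each line. In Co 38 of 49 members were called, 19 in each direction, where 74.7% of all genes tested were called (37.8% higher in the cerebellum and 36.9% higher in the striatum). In Hi 40 were called, 20 in each direction, where 70.5% were (35.4% and 35.1%). The difference of the 2 region effects is the line by region interaction, and it was called for 3 members, described next.

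The second comparison, between lines within a region, asks which members differ between high-running and control mice. Few did. In the cerebellum 4 of 49 members were called, Rspo3 and Lgr4 as higher in Hi and Fzd7 and Dvl2 as lower, where 5.94% of all genes tested were called (2.94% as higher and 2.99% as lower). In the striatum 1 was called, Wnt3 as higher in Hi, where 2.66% were (1.49% as higher). The median size of the line difference over the members was 0.16 in the cerebellum and 0.14 in the striatum, beside 0.097 and 0.085 over all genes tested. At an unadjusted p under 0.05 there were 6 members in the cerebellum and 9 in the striatum, where 19.7% and 14.1% of all genes tested passed. The lines did not overlap for 5 members in the cerebellum and 5 in the striatum, where 13.3% and 13.1% of all genes tested did not. The share of members called was near that of all genes in either region. All line values rest on the same 15 samples, and the test of whether a line difference differs between regions is the interaction, in which 3 members were called (Rspo3, Wnt3 and Fzd7), where 0.532% of all genes tested were.

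**Figure D3:**
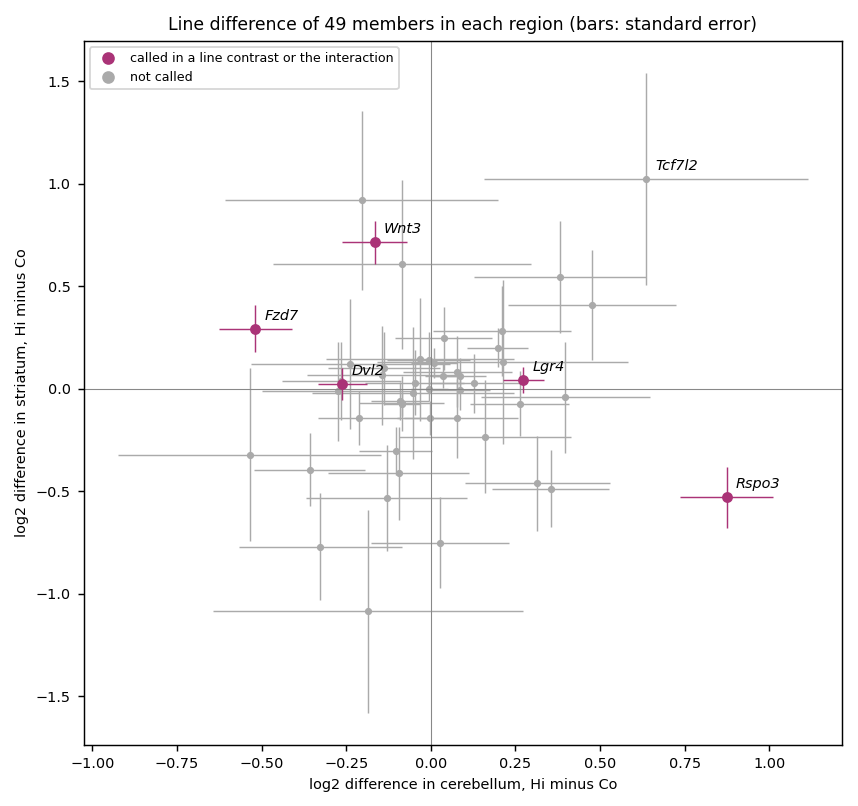
Difference between lines (Hi minus Co, log2 units) in the cerebellum on the horizontal axis and in the striatum on the vertical axis for the 49 tested members, with bars for the standard error. Rspo3 lies at 0.87 and -0.53 and Wnt3 at -0.17 and 0.71, and the wide bars of Tcf7l2 come with 1 high CeHi sample.

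Rspo3, a secreted agonist that acts through Lgr4, Lgr5 and Lgr6, had the largest line difference of the members called. It was 184, 187, 202 and 167 normalized counts in the 4 CeCo samples and 384, 297, 338 and 347 in the 4 CeHi samples. Every CeHi sample lay above every CeCo sample. The means were 185 ± 14.7 (SD, n = 4) and 342 ± 35.6 (SD, n = 4), a difference of 0.87 ± 0.14 or 1.83-fold (limma, adjusted p = 0.00062). In the striatum it was 470.3, 443, 342 and 366 in StCo and 353, 221 and 279 in StHi, so Hi tended to the lower values but the groups overlapped. That difference was -0.53 ± 0.15 (limma, adjusted p = 0.068) and was not called. The interaction was 1.40 ± 0.20 (limma, adjusted p = 0.0033), and it was called under each of the 28 alternatives. The gene lies on the minus strand of chromosome 10 (29452416 to 29535867), where Gm20276 on the same strand and Gm48159 on the opposite strand overlap it, and it is not given whether counting used strand. In Co its level was lower in the cerebellum than in the striatum (difference -1.12 ± 0.14), and in Hi the region difference was 0.28 ± 0.15 and not called. Without replicate 3 of CeHi the cerebellar difference was 0.87 (limma, adjusted p = 0.0021), and over all alternatives the adjusted p lay between 3.4e-05 and 0.01.

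Lgr4, the receptor of this group with the highest level, rose in the same tissue by a smaller amount. It was 2625, 2536, 2388 and 2608 in CeCo and 3289, 3113, 3051 and 2879.8 in CeHi, with no overlap. The difference was 0.27 ± 0.06 or 1.21-fold (limma, adjusted p = 0.01), and without replicate 3 of CeHi it was 0.31 (limma, adjusted p = 0.0073). Over the alternatives its adjusted p lay between 0.003 and 0.093, and the call was lost in 1 of 28, edgeR on 10 samples. In the striatum the groups overlapped, at 1164, 1240.3, 1140.4 and 1351 in StCo and 1234, 1327 and 1235 in StHi, a difference of 0.04 ± 0.06. The interaction of Lgr4 was 0.23 ± 0.09 (limma, adjusted p = 0.37), so a difference between regions was not shown for it. Lgr5 and Lgr6 were not called between lines, at -0.10 ± 0.11 and 0.48 ± 0.25 in the cerebellum.

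**Figure D4:**
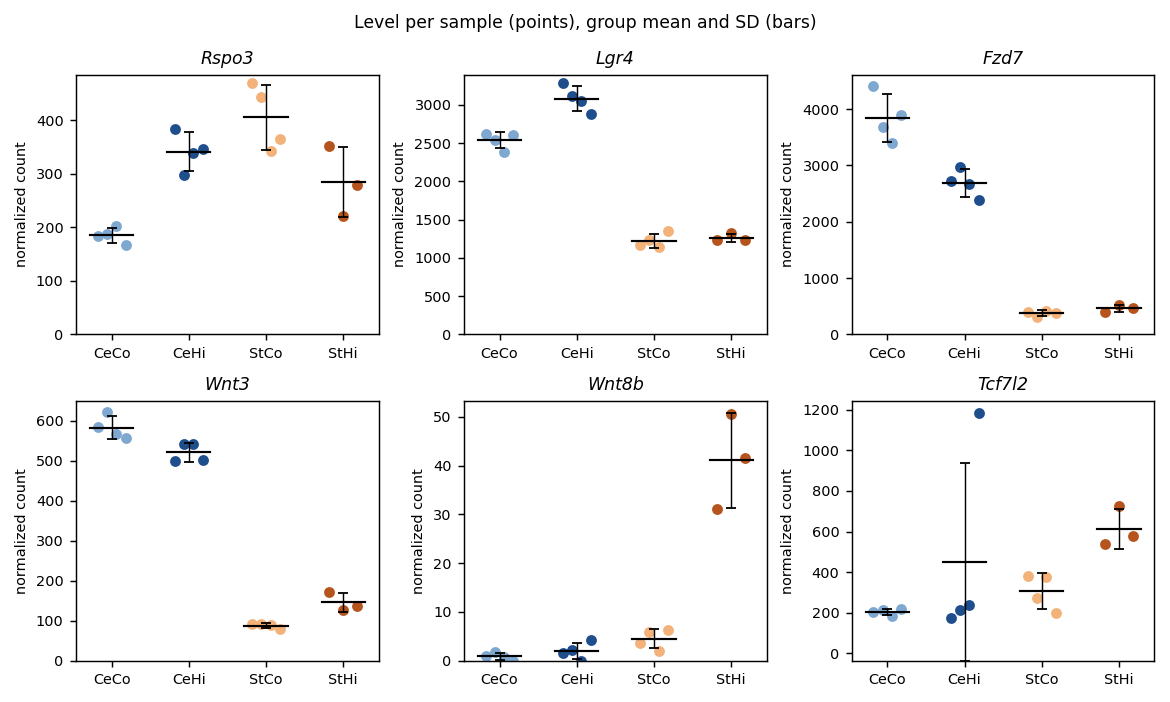
Normalized counts of 6 members in each sample, by group, with group means and SD as bars. Rspo3 and Lgr4 separate CeHi from CeCo upward and Fzd7 downward, Wnt3 and Wnt8b separate StHi from StCo, and 1 CeHi sample of Tcf7l2 reaches 1183.

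Fzd7, a receptor known from stem and progenitor cells, fell in the Hi cerebellum. It was 4407, 3674, 3394 and 3887 in CeCo and 2727, 2976, 2669 and 2381 in CeHi. The 2 groups did not overlap, and the means were 3841 ± 428 and 2688 ± 244 (SD, n = 4 each). The difference was -0.52 ± 0.11 (limma, adjusted p = 0.0071), and it was -0.46 without replicate 3 of CeHi (limma, adjusted p = 0.028). All 28 alternatives made this call, with an adjusted p between 0.00075 and 0.031. In the striatum the values were 399.9, 307, 419 and 389 in StCo and 406, 529 and 463 in StHi, overlapping, with a difference of 0.29 ± 0.12. The interaction was -0.81 ± 0.16 (limma, adjusted p = 0.027), but this call was lost in 9 of the 28 alternatives, among them those without replicate 0 or 3 of CeCo, 0 or 2 of CeHi, or 1 or 2 of StHi, with adjusted p-values (limma) between 0.051 and 0.089. Dvl2 fell by a small amount in the cerebellum, from 644, 752, 709 and 686 in CeCo to 624, 524, 608 and 582 in CeHi, a difference of -0.26 ± 0.07 (limma, adjusted p = 0.042). It lost the call in 15 of 28 alternatives, among them those without replicate 1, 2 or 3 of CeCo, 1, 2 or 3 of CeHi, or 0 or 1 of StCo, with an adjusted p of 0.085 without replicate 3 of CeHi (limma) and of up to 0.16 over all, and Acadvl on the opposite strand overlaps it.

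Wnt3 moved in the striatum, the region where it is low. It was 91.3, 92, 88.2 and 78.6 in StCo and 173, 127 and 138 in StHi, and every StHi sample lay above every StCo sample. The means were 87.5 ± 6.17 (SD, n = 4) and 146 ± 23.7 (SD, n = 3), a difference of 0.71 ± 0.10 or 1.64-fold (limma, adjusted p = 0.00062). In the cerebellum it was 584, 622, 566 and 557 in CeCo and 500.3, 541, 541 and 501 in CeHi, where the groups did not overlap either, with Hi the lower, and the difference of -0.17 ± 0.10 was not called (limma, adjusted p = 0.37). The interaction was -0.88 ± 0.14 (limma, adjusted p = 0.0075), and without replicate 3 of CeHi it was -0.87 (limma, adjusted p = 0.013). This interaction was called in 25 of 28 alternatives, with an adjusted p between 0.0041 and 0.19, and was lost in edgeR, in DESeq2 and with a block of line and replicate number (limma, adjusted p = 0.057). The striatal call was made in 26 of 28 alternatives, with an adjusted p between 0.00039 and 0.2, and was lost in edgeR and DESeq2, which could use 1 StHi sample. Wnt9b, its neighbour on the chromosome, was not called in the striatum, at 0.61 ± 0.41. Over the mean of both regions Wnt3 (0.27 ± 0.07) and Lgr4 (0.16 ± 0.04) were called as higher in Hi, where 8.48% of all genes tested were called and 4.34% as higher, and no member as lower. For Lgr4 this mean call was lost without replicate 2 of CeCo, 0 of CeHi, 0, 1 or 2 of StCo, or 1 or 2 of StHi (limma, adjusted p between 0.051 and 0.091), and for Wnt3 without replicate 0 of StHi (limma, adjusted p = 0.058).

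A pair of further members, Wnt8b and Tcf7l2, is described although their values were seen before they were chosen. Wnt8b, a ligand of the developing forebrain, was under the filter and so outside the main test. It was 3.7, 5.93, 2.1 and 6.4 in StCo and 31.1, 50.5 and 41.6 in StHi, with no overlap, and at most 4.23 in any cerebellum sample. With no filter on low values the difference in the striatum was 2.98 (limma, adjusted p = 0.0023). Tcf7l2, the Tcf factor known for its place in thalamic and habenular neurons, was 379, 275, 378 and 198 in StCo and 541, 724 and 576 in StHi, again without overlap. In the cerebellum it was 204, 214, 186 and 216 in CeCo and 176, 212, 237 and 1183 in CeHi, where replicate 3 stood far above the rest. With all samples its striatal difference of 1.03 ± 0.52 was not called (limma, adjusted p = 0.41), and without replicate 3 of CeHi it was 1.03 and called (limma, adjusted p = 0.006). None of the other 27 alternatives made this call, with adjusted p-values of up to 0.99.

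Some markers of tissue next to the striatum separated StHi from StCo, as did these 2 genes and Wnt3. Of all genes tested 13.1% did not overlap between StHi and StCo. For choroid plexus the 6 genes summed to between 1259 and 1778 in StCo and between 1778 and 18047 in StHi. Of these genes 1, Cldn2, did not overlap, at up to 6.4 in StCo and from 6.49 in StHi. That gap is smaller than the worth of 1 fragment. Of 6 thalamic marker genes 3 were higher in every StHi sample than in any StCo sample and 3 overlapped. Slc17a6 was 551 to 1202 in StCo and 1794 to 2284 in StHi, Plekhg1 was 675 to 781 and 920.2 to 1134, and Ramp3 was 262 to 309.6 and 313 to 505. The overlapping genes were Prkcd, at 712 to 2168 in StCo and 1272 to 1436 in StHi, Rora and Tnnt1. Rora was 154 to 309 and 224 to 330, and Tnnt1 was 47.5 to 142 and 80.4 to 133. Prkcd and Rora were higher in every cerebellum sample than in any striatum sample, so they are not particular to thalamus here. The summed level of the 6 was between 3289 and 4451 in StCo and between 4803 and 5495 in StHi, and none of them was at 0. Slc17a6 was high in the same CeHi library as Tcf7l2. The 3 oligodendrocyte genes summed to between 169389 and 249438 in StCo and between 258769 and 297553 in StHi, and 1 of them, Mbp, did not overlap. The granule cell genes, which are high where Wnt3 is high, were between 221 and 372 in StCo and between 200.1 and 323 in StHi and overlapped. Within StHi, Wnt3 and the thalamic sum were highest in replicate 0, and Wnt8b and Tcf7l2 in replicate 1. The choroid plexus and oligodendrocyte sums were highest in replicate 2. The part of any such tissue in the values of Wnt3, Wnt8b and Tcf7l2 was not tested.

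A set of members had lower values in StHi without a call, and cortical marker genes, which overlapped between lines, are set beside them. Wnt9a was 319.7, 398, 278 and 242 in StCo and 258, 126 and 183 in StHi (-0.75 ± 0.22, limma, adjusted p = 0.087), and Rspo2 was 402, 459.9, 297 and 557 and 357, 158 and 264 (-0.77 ± 0.26, limma, adjusted p = 0.15). These genes were chosen after their values were seen. In both, as in Rspo3, Dkk3 and Dkkl1, the lowest striatal sample was replicate 1 of StHi. The same sample was lowest for the 4 cortical marker genes, whose sum was between 32773 and 48772 in StCo and between 17219 and 37114 in StHi, with 17219 in that sample. Without it the difference of Wnt9a was -0.49 (limma, adjusted p = 0.4) and that of Rspo3 in the striatum was -0.36 (limma, adjusted p = 0.33), and over all alternatives the adjusted p lay between 0.011 and 0.4 for Wnt9a and between 0.013 and 0.33 for Rspo3. Conversely Rspo3 was called as lower in StHi without replicate 0 of StHi (-0.70, limma, adjusted p = 0.015) or without replicate 2 of StCo (-0.61, limma, adjusted p = 0.041), and Wnt9a without replicate 0 of StHi (-1.0, limma, adjusted p = 0.02). The part of cortical tissue in these values was not tested.

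In the cerebellum cell type markers are set beside Rspo3, Lgr4, Fzd7 and Dvl2. Few of the marker genes separated the lines, and of all genes tested 13.3% did not overlap between CeHi and CeCo. The 6 medium spiny neuron genes summed to between 5169 and 5937 in CeCo and between 5967 and 6867 in CeHi, with no overlap but a narrow gap. Only 1 of them, Rgs9, did not overlap by itself, at up to 272 in CeCo and from 273 in CeHi. Ppp1r1b, the largest part of the sum, overlapped, at 4872 to 5458 in CeCo and 5424 to 6402 in CeHi. Among 4 astrocyte genes 1 was higher in every CeHi sample than in any CeCo sample, Aqp4 at 14434 to 16049 in CeCo and 16346 to 18998 in CeHi, and the sum of the 4 was between 89879 and 101234 in CeCo and between 97191 and 108430.0 in CeHi. The summed endothelial genes were between 4988 and 5372 in CeCo and between 5466 and 5868 in CeHi, with 1 of 4 genes, Slco1a4, not overlapping. The 6 genes of leptomeninges and fibroblasts overlapped between lines, with sums between 4365 and 5576 in CeCo and between 3293 and 4570.2 in CeHi, and so did the 4 Purkinje and 4 granule cell genes. The 6 choroid plexus genes spanned a wide range in both lines, between 1384 and 116444 in CeCo and between 1060.4 and 112705 in CeHi. The remaining lists had 1 gene each that separated the lines in the cerebellum for thalamus (Prkcd, lower in CeHi) and cortex (Neurod6, higher in CeHi), and none of 3 genes each for oligodendrocytes, ependyma and dorsal midbrain. The part of any of these cells in the values of the 4 members was not tested.

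Of the 56 other pathway genes 4 were called between lines in the cerebellum, where 5.94% of all genes tested were called. Tnfrsf19 (0.41 ± 0.08) and the planar polarity gene Prickle1 (0.37 ± 0.10) were higher in Hi, and Fam123b (-0.34 ± 0.08) and Apc2 (-0.20 ± 0.05), both of the destruction complex, were lower. In the striatum 1 was called, where 2.66% of all genes tested were called. It was Daam2 (0.31 ± 0.08), which links Dvl to the actin cytoskeleton. None was called in the interaction (limma), where 0.532% of all genes tested were. Over the mean of both regions Daam2 (0.26 ± 0.05) and Tnfrsf19 (0.23 ± 0.06) were higher and Fam123b (-0.21 ± 0.06) and Vangl2 (-0.26 ± 0.07) lower in Hi. Axin2 and Lef1, 2 members that are themselves common targets of the pathway, were not called between lines in the cerebellum, where Axin2 was 919.9, 1113, 979 and 995 in CeCo and 1023, 1051, 914 and 1022 in CeHi, overlapping, and Lef1 differed by 0.04 ± 0.14, nor in the striatum, at -0.14 ± 0.08 and 0.25 ± 0.15.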

How the data were processed

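Total RNA of 15 samples was sequenced by the authors in paired-end mode and mapped to GRCm38 with TopHat2, and gene counts were scaled for library size with Cuffnorm (version 2.2.1, per the labels). The deposited table is named for FPKM, but its values behave as a signal in which the authors corrected each fragment count for library size but did not divide it by the length of the gene: 99.6% to 99.8% of the low values of a sample were whole multiples of 1 step within a tolerance of 0.1, and 1 fragment was worth 0.841 to 1.30 normalized counts. In 10 samples this passed an independent check of the recovered fragments. In the other 5 samples fragment totals are estimates. Whether counting used strand is not given in the sources used here.

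Samples were grouped from their deposited labels. Values were scaled by TMM (edgeR 4.0.16), log2(value + 1) was fitted with 4 group means in limma 3.58.1 (R 4.3.3, trended and robust moderation, two-sided), and p-values were adjusted over 15213 genes with a CPM of at least 1 in at least 3 samples. The whole table was fitted and the procedure was tested on simulated data. A fold change on this scale understates the change of low genes. The edgeR quasi-likelihood and DESeq2 1.42.0 tests used the recovered fragments of the 10 samples alone, which left 1 StHi sample that is assumed to vary like the other groups. Levels per kilobase were divided by the merged exons of GENCODE M21. No source states whether cerebellum and striatum samples came from the same mice, nor that same-numbered samples did. The p-values take all samples as independent and measure the spread between these samples.

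The members and lists were chosen with earlier results of these data known. Named with values were members called between lines or in the interaction, the 12 called members with the largest region difference, the members highest per kilobase in their role, and of the other pathway genes those called between lines and the 3 largest region differences of each list. Other members are given by their fitted difference, or by their range where they were under the filter. Wnt8b, Tcf7l2, Wnt9a, Rspo2, Axin2 and Lef1 between lines and Ctnnb1 between regions were named outside this rule. Locomotor data were not analysed here.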

Additional observations from a re-analysis of the deposited data

Results flagged for a closer look

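The line difference was itself different between the regions for 3 members by the test of the interaction (line difference in cerebellum minus that in striatum). It was 1.40 for Rspo3 (limma, adjusted p = 0.0033), -0.88 for Wnt3 (limma, adjusted p = 0.0075) and -0.81 for Fzd7 (limma, adjusted p = 0.027).

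A test for single distant samples, in groups of 4 and at the critical value of Dixon for a chance of about 1 in 20, was applied to 73 groups of the members' values, and 3 of these held such a sample. Tcf7l2 was 1183 normalized counts in replicate 3 of CeHi, where the group spanned 176 to 1183. Dkk3 was 681 in replicate 1 of CeHi, where the group spanned 681 to 1031. Fzd2 was 953 in replicate 2 of StCo, where the group spanned 709.7 to 953. The test is set to flag about 1 group in 20 by chance, and 3 in 73 is not above that rate. This count does not tell why a given sample was distant, which was not tested. Replicate 3 of CeHi, flagged for Tcf7l2, also stood apart in several marker genes.

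Wnt8b was outside the tested genes because of its low level, and it averaged 41.1 normalized counts in StHi against 4.53 in StCo.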

How the results depend on the processing

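No result turned its direction under any alternative. The 12 largest region differences, the cerebellar calls of Rspo3 and Fzd7 and the interaction of Rspo3 were made under all alternatives run. Members called between regions in Hi fell to 26 when a CPM of 5 was asked for, where fewer genes were tested. In edgeR on 10 samples the members called were 2 for the line in the cerebellum, 0 for the line in the striatum (10 at an unadjusted p under 0.05) and 1 for the interaction, and DESeq2 on the same samples called 4 in the striatum. Without a filter, or with a filter of 0.1, 2 were called in the striatum, one of them Wnt8b. With sample weights 4 were called in the striatum and 5 over the mean of both regions. The cause was not tested, apart from the fewer samples of the count tests. Over all genes edgeR called 388 for the line in the cerebellum, 131 in the striatum and 27 in the interaction, and DESeq2 705, 305 and 147, against 903, 405 and 81 in limma.

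When 1 sample was left out in turn, the members called ranged from 39 to 42 for region, 36 to 39 in Co, 35 to 40 in Hi, 3 to 4 for the line in the cerebellum, 1 to 3 in the striatum, 2 to 3 for the interaction and 1 to 4 for the mean of both regions. The striatal count of 1 rose to 2 without replicate 3 of CeHi, 2 of StCo or 3 of StCo, and to 3 without replicate 0 of StHi. For the mean of both regions the count of 2 rose to 4 without replicate 3 of CeHi or 0 of StHi, and fell to 1 without replicate 2 of CeCo, 0 of CeHi, 0 or 1 of StCo, or 1 or 2 of StHi.

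Same-numbered samples of the 2 regions deviated together in Co (r of 0.171 to 0.278 across genes) and not in Hi (-0.075 to 0.051). These values cannot decide whether a number stands for 1 mouse, since no source states it and 1 StHi sample was removed. The main fit took all samples as independent, which may not hold in Co, and fits with blocks are given next. With the replicate number as a block the members called were 40 for region, 38 in Co, 37 in Hi, 3 for the line in the cerebellum, 1 in the striatum, 2 for the interaction and 2 for the mean. The interaction of Fzd7 then had an adjusted p of 0.086 and Dvl2 in the cerebellum one of 0.066 (limma). With a block of line and number 42, 39, 38 and, for the interaction, 2 were called, where Wnt3 had an adjusted p of 0.057 (limma). Of the 16 members highest per kilobase in a role and region 14 were so with the longest transcript too, and 15 were so when replicate 3 of CeHi was also left out, an alternative chosen after seeing the data. Of the 8 members under the filter Dkk1 and Dkk4 held at most 3 fragments in every sample.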
